A study of Mus musculus with 26 samples.

Results

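The cells described here are the somatic-gate cells of the fetal mouse ovary at E14.5 (E for embryonic day), compared by a letter, P, C or D, that each cell carries in its deposited name. They were chosen as all cells of stage E14.5 sorted in the gate called Negative, which gave 137 of the 1881 cells of the series. Of these, 47 carried P, 44 carried C and 46 carried D. What the letters stand for is not given in the sources used here, so they are used only as names. The 26 libraries of the series came from ovaries of mice with the BVSC transgenes (Blimp1-mVenus and Stella-ECFP), which light up germ cells, and every cell compared here comes from such mice. For each stage the ovaries of several embryos were pooled, dissociated with trypsin and sorted by fluorescence, and single cells were picked by mouth for a modified STRT-seq protocol that tags the 3′ end of each transcript and counts unique molecular identifiers (UMIs). The E14.5 cells also comprised 283 cells of the BVSC gate and 45 of the BV gate, which are not part of the comparison.

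The 137 cells came from libraries 4, 13 and 15, and each library held all 3 letters. Library 4 held 15 P, 13 C and 15 D cells, library 13 held 16, 15 and 15, and library 15 held 16 of each. The cell names give replicate R1 for libraries 4 and 13 and R2 for library 15. Nothing says that libraries 4 and 13 came from separate litters. The p-values measure how far the differences between letters vary from library to library, and this variation may be partly technical. Letters were compared within libraries, on UMI counts summed over the cells of a letter in a library, called a pool below. Levels are given as CPM, the UMIs of a gene per 1000000 UMIs of its pool.

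In the fetal ovary the somatic compartment consists mainly of supporting cells, the pregranulosa cells that will surround the oocytes, of stromal cells and of a surface epithelium. WNT4 and RSPO1 are the secreted signals that keep supporting cells on the ovarian path, and KIT ligand from the same cells sustains germ cells. The rete ovarii, a cord of epithelial cells at the border to the mesonephros, is known for expression of the transcription factor Pax8. The gonad differs along its length in the timing of germ cell entry into meiosis, and retinoic acid, BMP and WNT signals are the pathways most often studied there.

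Depth overlapped between the letters. A cell had a median of 208924 UMIs, with a lowest of 35819 and a highest of 667401, and a median of 7274 genes. The mean of the pool medians was 235794 ± 53129 UMIs (SD, n = 3 libraries) for P, 233049 ± 75796 for C and 196558 ± 64068 for D, with p = 0.25 by an exact permutation of the letters within libraries. Genes detected per cell gave p = 0.8056 by the same exact test. The 3 letters took contiguous blocks of cell numbers, which are taken here to name the barcodes. Numbers 17 to 32, 33 to 48 and 49 to 64 were P, C and D in library 4, whereas 49 to 64, 65 to 80 and 81 to 96 were P, C and D in libraries 13 and 15. Letter and barcode block therefore cannot be told apart within a library, but numbers 49 to 64 held D in library 4 and P in the other libraries.

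The sorted cells showed somatic markers under all 3 letters. Summed levels of the 11 measured supporting-cell markers lay between 1549 and 2188 CPM in the 9 pools, and those of 5 early gonadal somatic genes between 924.6 and 1508 CPM. The 11 measured germ cell markers summed to 45.6 to 281.6 CPM, highest in the pools of library 4, and the 9 macrophage and immune markers to at most 16.8 CPM. Genes of mouse chromosomes 1, 2, 3, 4, 5, 6, 7, 10 and X were analysed, with those of chromosome 8 that end at or before position 26015650 (GRCm38), so every count below is over these genes and not over the genome, and markers elsewhere, Foxl2 and Fst among them, were not used here.

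Of 6552 genes tested on these chromosomes, 1 passed the threshold between letters by edgeR. In what follows a gene is said to pass by edgeR unless another tool is named. Carboxypeptidase A1 (Cpa1), a zinc enzyme that trims the C-terminal residue of peptides and is best known from the exocrine pancreas and its progenitors, was lower in D than in both other letters. Cpa1 lies on the plus strand of chromosome 6 between 30639218 and 30645363 (GRCm38, GENCODE M21), and no other gene of the table overlaps it. Its level in libraries 4, 13 and 15 was 88.4, 124 and 148 CPM in P. In C it was 94.7, 53.7 and 111 CPM. In D it was 8.01, 6.13 and 8.59 CPM. The means were 120 ± 30.1 (SD, n = 3 libraries), 86.5 ± 29.6 and 7.58 ± 1.28 CPM for P, C and D. All 3 D pools were thus below all 6 P and C pools, whereas the P and C pools overlapped.

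Relative to P, Cpa1 in D was lower by a log2 fold change of -3.99 ± 0.48 (SE), a 15.9-fold difference, with adjusted p = 0.00053 by edgeR's quasi-likelihood test with Benjamini-Hochberg adjustment. Relative to C it was lower in D by -3.42 ± 0.47, a 10.7-fold difference, with adjusted p = 0.0038 by edgeR. Between C and P its log2 fold change was -0.57 ± 0.42, with adjusted p = 0.9994 by edgeR. Genes called lower made up 0.0153% of the genes tested in each of the comparisons D with P and D with C, that is, Cpa1 alone. No gene was called in C against P by edgeR or by limma on mean log2 CPM, where 307 genes had an unadjusted edgeR p under 0.05 and DESeq2 called 44. In D against P and in D against C, 287 and 348 genes had an unadjusted edgeR p under 0.05, and DESeq2 called 40 and 61. An exact permutation of the letters within libraries on Cpa1 gave p = 0.0556, where the smallest p that 3 libraries allow is 0.0278. Without library 15 the D against C call was lost, at a log2 fold change of -3.31 with adjusted p = 0.28 by edgeR. With limma on the mean over cells of log2 CPM, which gives the few cells with very high counts less weight, neither difference passed, at -1.75 for D over P and -0.995 for D over C with adjusted p = 0.81 for both. Cell numbers 49 to 64 gave 8.01 CPM in library 4, where they were D, and 124 and 148 CPM in libraries 13 and 15, where they were P. These values come from different libraries, and an effect of the barcode block was not tested.

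**Figure D1:**
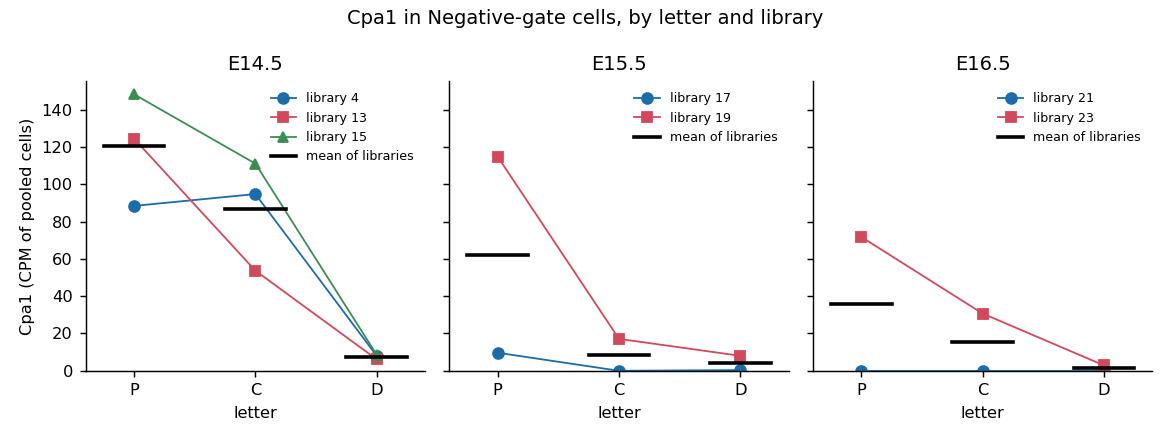
Level of Cpa1 in CPM (vertical axis) in the pools of letters P, C and D at E14.5, E15.5 and E16.5. Points are pools, lines join the pools of a library and black bars are means over libraries; at E14.5 the 3 D pools lie between 6.13 and 8.59 CPM, below every P and C pool.

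Within a letter Cpa1 was uneven among cells. A level of at least 100 CPM was found in 14 of 47 P cells, in 9 of 44 C cells and in 1 of 46 D cells. By library, 5, 3 and 6 P cells and 2, 3 and 4 C cells of libraries 4, 13 and 15 reached it, and the single D cell came from library 4. The highest cell had 2308 CPM in P, 658 CPM in C and 154 CPM in D. The 5 highest P cells held 64.5% of the 1297 Cpa1 UMIs of that letter, and the C and D cells had 855 and 70 UMIs in all. The cells of the BVSC gate at E14.5 serve as a background and were taken by gate alone, without a check that each is a germ cell. Of these, 1 of 283 reached 100 CPM, at 953 CPM. Low levels were common in library 13 under every letter, where D cells had a median of 5.98 CPM and a highest of 23 CPM, so cells were counted at 100 CPM or more rather than at any UMI. In a pool, fewer cells with much Cpa1 and less Cpa1 per cell cannot be told apart. By single cells, D had fewer cells at 100 CPM or more, whereas any Cpa1 UMI was found in 30 of 47 P, 24 of 44 C and 24 of 46 D cells.

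**Figure D2:**
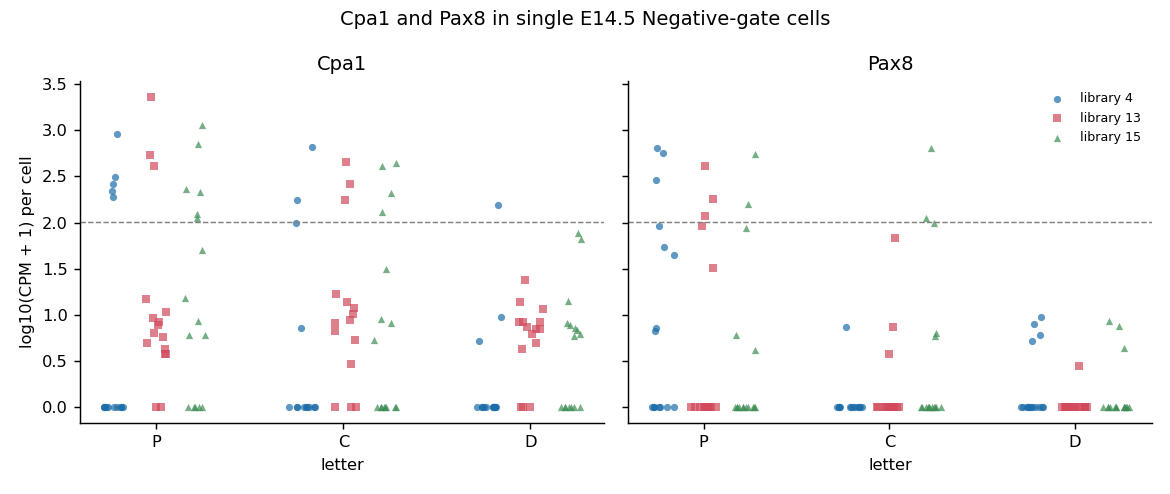
Level of Cpa1 (left) and Pax8 (right) in each of the 137 cells as log10(CPM + 1), by letter and library; the dashed line marks 100 CPM. Of the cells at or above the line for Cpa1, 14 are P, 9 are C and 1 is D, and for Pax8 8 are P, 2 are C and 0 are D.

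The difference was also present within the most numerous cluster. Clusters were drawn from all 1881 cells, and cluster 1, called supporting-like because 10 of 11 measured supporting markers (Wnt4, Rspo1, Kitl, Lgr5, Bmp2 and Wnt6 among them) were above the rest of the series, held 80 of the 137 cells. In it Cpa1 was lower in D than in P by a log2 fold change of -4.29 (adjusted p = 0.0044 by edgeR) and lower than in C by -3.92 (adjusted p = 0.0134 by edgeR). It was the only gene called there, 0.017% of 5890 genes in either comparison. The cells that reached 100 CPM in this cluster were 9 of 26 P, 6 of 25 C and 1 of 29 D cells. Cpa1 itself took part in drawing the clusters, so these values stand beside the result over all cells as a description.

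The level of Cpa1 by letter was then read in the libraries of other stages that the E14.5 comparison did not use. At E13.5 library 3, the only one with pools of P and C, gave 97.8 CPM in C (15 cells) and 22.5 CPM in P (16 cells), with C above P. The single D cell of that stage, in library 11, had 3 Cpa1 UMIs. At E15.5 library 17 gave 9.67, 0 and 0.37 CPM for P, C and D, and library 19 gave 115, 17.1 and 8.02 CPM. The P pool of library 19 held only 8 cells, against 15 in C and 16 in D, and the P pool of library 17 had 33 Cpa1 UMIs. At E16.5 library 23 gave 71.8, 30.7 and 2.9 CPM, and library 21 was listed at 0 under all 3 letters. P was thus the highest letter in the 3 later libraries with any Cpa1, and D was the lowest in libraries 19 and 23. Fitted over the 4 later libraries, the log2 fold change of D over P was -4.32 ± 1.06, with an unadjusted p = 0.00075 and an adjusted p = 0.533 by edgeR, so it did not pass over all genes. C over P was -2.66 ± 0.97 there, with adjusted p = 0.983 by edgeR. The exact permutation over these libraries gave p = 0.0556. The change of the D over P difference from E14.5 to the later stages was -0.34 on the log2 scale, with adjusted p = 1 by edgeR, and that of C over P was -2.01, with adjusted p = 0.9993. Over the whole Negative gate, the median of the libraries was 100.6 CPM at E11.5, 106 CPM at E12.5, 58.5 CPM at E13.5 (1 library), 62.6 CPM at E14.5, 17.3 CPM at E15.5, 18.3 CPM at E16.5, 6.74 CPM at E17.5 and 0 CPM at E18.5.

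Pax8, the paired-box transcription factor of the kidney, thyroid and reproductive tract epithelium and of the rete ovarii, had the second smallest p in D against P and did not pass. It lies on the minus strand of chromosome 2 between 24420560 and 24475599. In P it was at 116, 51.6 and 32.3 CPM in libraries 4, 13 and 15. In C it was at 0.447, 2.97 and 52.7 CPM. In D it was at 2, 0.236 and 1.43 CPM. D was below P in all 3 libraries, and C was low in libraries 4 and 13 but above P in library 15. The log2 fold change of D over P was -6.31 ± 1.29, with adjusted p = 0.32 by edgeR, and D had 10 Pax8 UMIs in all, against 627 in P and 200 in C. Cells with at least 100 CPM of Pax8 were 8 of 47 in P, 2 of 44 in C and 0 of 46 in D. The exact 95% binomial upper limit for 0 of 46 is 7.71%, which covers counting error only. At the later stages the libraries differed. P was highest in library 17 (54.5 CPM, against 0.891 in C and 0 in D) and in library 23 (11.3 CPM, against 2.17 in C and 2.18 in D). P was lowest in library 19 (1.79 CPM, against 35.2 in C and 3.32 in D) and in library 21 (6.41 CPM, against 23.4 in C and 49.7 in D). Over these libraries D over P was -2.27 ± 1.79 with adjusted p = 0.97 by edgeR. At E14.5 DESeq2 called Pax8 in D against P, with adjusted p = 0.0097. Of 14 mesonephros markers listed, Pax8 among them, 4 were tested and none passed by edgeR. Their median log2 fold change was 0.597 for C over P and 0.429 for D over P, the other direction from Pax8. D was above P in all 3 libraries for 1 of the 4, beside 12.6% of all genes tested. It was below P in all 3 for 1, Pax8, beside 12%.

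Among the supporting-cell genes, 10 of 19 listed were tested and none passed in any pair by edgeR, and the median log2 fold change was -0.027 for C over P, -0.14 for D over P and 0.106 for D over C, beside -0.017, -0.012 and 0.011 over all genes tested. Kitl, which encodes the ligand of the germ cell receptor KIT, was at 469 to 611 CPM in P, 426 to 608 CPM in C and 442 to 630 CPM in D, with a log2 fold change of 0.027 for D over P. Rspo1, the secreted WNT amplifier, was at 65.9 to 128 CPM in P and 123 to 152 CPM in D. Bmp2, a ligand made by supporting cells, was at 119 to 174 CPM in P and 142 to 188 CPM in D at E14.5, and at E15.5 it was called higher in D than in P, by 2.44 on the log2 scale with adjusted p = 0.0092 by edgeR. Wnt4, the secreted ligand needed for ovarian development (chromosome 4, 137277489 to 137299726), was at 194.8, 100.8 and 188.6 CPM in P, at 112, 115 and 202 CPM in C and at 51.3, 24.5 and 124 CPM in D of libraries 4, 13 and 15. D was the lowest letter in each library, but the D pool of library 15 was above the P pool of library 13. Its log2 fold change was -1.48 ± 0.35 for D over P and -1.25 ± 0.35 for D over C, with adjusted p = 0.56 and 0.74 by edgeR, and within cluster 1 it was -1.91 and -1.8, with adjusted p = 0.9997 and 0.86 by edgeR for D over P and D over C. DESeq2 called Wnt4 in both comparisons, with adjusted p = 0.0057 and 0.0238. Over the later libraries D over P was -0.58 ± 0.45.

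The list of WNT and R-spondin genes, which includes Wnt4, gave a mixed picture, with none of 12 tested members passing in any pair by edgeR. D was below C in all 3 libraries for 5 of the 12, beside 14.6% of all genes tested, and below P for 3 of the 12, beside 12%. Wnt4 counts in both. D was above P in all 3 libraries for 3 of the 12, beside 12.6%. Sfrp1, a secreted WNT antagonist singled out after its values were seen, was highest in C, at 103, 94.8 and 155 CPM, against 28.4, 44.7 and 27.5 CPM in P and 56.5, 19.6 and 36.5 CPM in D. All 3 C pools of Sfrp1 were above all P and D pools, with an unadjusted edgeR p of 0.0032 against P and 0.0045 against D and no adjusted p under 0.05 by edgeR, whereas DESeq2 gave adjusted p = 0.0276 and 0.0332. Lgr5, an R-spondin receptor, was at 2.8, 73.6 and 139 CPM in P and at 77.3, 124 and 146 CPM in D. D was above P in all 3 libraries, by far the most in library 4, and the log2 fold change was 1.37 ± 0.57.

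**Figure D3:**
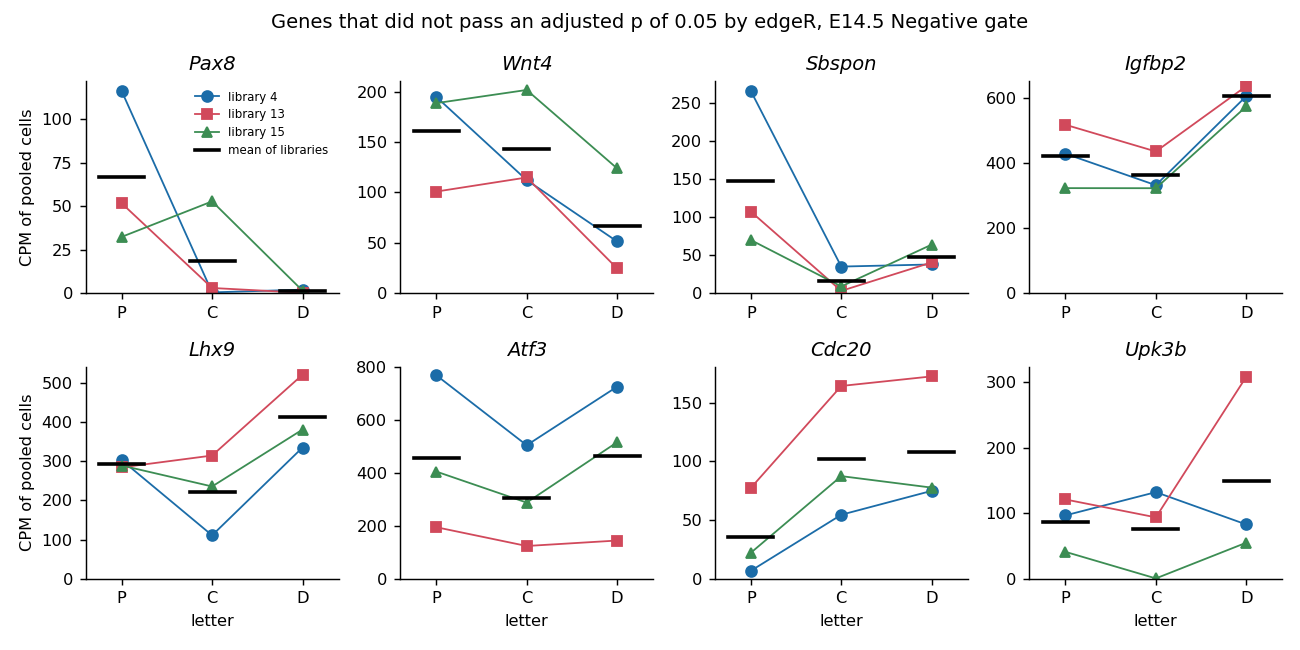
CPM (vertical axes) of 8 genes that did not pass an adjusted p of 0.05 by edgeR, in the E14.5 pools of letters P, C and D. Points are pools, lines join the pools of a library and black bars are means; Sbspon is highest in P and lowest in C in each library, and Igfbp2 is highest in D in each library.

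Letter C stood lowest for a group of genes that did not pass by edgeR and were called by DESeq2. Sbspon, which encodes a secreted protein with somatomedin B and thrombospondin domains (chromosome 1, 15853862 to 15892722), had the smallest p of C against P. It was at 265, 107 and 69.7 CPM in P, at 34.9, 2.97 and 8.83 CPM in C and at 37.6, 40.3 and 63.7 CPM in D. P was highest and C lowest in every library, and all C pools were below all P and D pools. The log2 fold change of C over P was -3.58 ± 0.61, with adjusted p = 0.0775 by edgeR. It passed without library 4 and without library 15, with adjusted p = 0.0184 and 0.0185 by edgeR, but not without library 13, at 0.73. DESeq2 gave adjusted p = 1.99e-07. Over the later libraries C over P was -0.59 ± 0.58. Irs2, an adaptor of the insulin receptor, was at 69.6, 17.9 and 79.6 CPM in P, at 2.68, 10.8 and 8.54 CPM in C and at 34.4, 57.1 and 48.7 CPM in D. Lrrc4, a synaptic adhesion protein, had 239 UMIs in P, 3 in C and 45 in D. In C against P the adjusted p by edgeR was 0.79 for both Irs2 and Lrrc4, and by DESeq2 it was 0.0034 and 0.00078.

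The immediate early genes respond within minutes to stress or growth signals and so also to tissue dissociation. Of 6 tested, 4 were lower in C than in P in all 3 libraries, beside 10.6% of all genes tested, and 4 were higher in D than in C in all 3 libraries, beside 12%. The median log2 fold change was -0.467 for C over P and 0.342 for D over C. Atf3, a stress-induced transcription factor, was at 769, 195 and 405 CPM in P, at 505, 124 and 288 CPM in C and at 726, 145 and 516 CPM in D. Btg2, an antiproliferative early gene, was at 1655, 732 and 1109 CPM in P and at 1130, 606 and 953 CPM in C. None passed by edgeR, with adjusted p = 0.79 for Atf3 and Btg2 in C against P, whereas DESeq2 called Btg2 (0.0064), Atf3 (0.0184) and Zfp36 (0.0313) there and Atf3 in D against C (0.0271). The libraries differed more than the letters, since library 4 had the highest and library 13 the lowest Atf3 under each letter. At E15.5 Atf3 was called in the other direction, higher in C than in P by 2.72 ± 0.35 on the log2 scale (adjusted p = 3.04e-10 by edgeR) and higher in D than in P by 1.88 ± 0.34 (adjusted p = 6.96e-05 by edgeR). At E16.5 C over P was -0.73 for Atf3, with adjusted p = 0.98 by edgeR.

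The glycolysis and the imprinted lists both had negative medians for C over P, at -0.198 and -0.286, and the oxidative phosphorylation list was nearer to all genes, at -0.046. Of 15 glycolysis and hypoxia genes tested, 6 were lower in C than in P in all 3 libraries, beside 10.6% of all genes tested, and 5 were higher in D than in C in all 3 libraries, beside 12%, with a median of 0.18 for D over C. Aldoa, Eno1 and Ldha, all glycolytic enzymes, had log2 fold changes of -0.2 to -0.3 for C over P and 0.28 to 0.4 for D over C. Of 15 imprinted genes, 4 were lower in C than in P in all 3 libraries and 4 were lower in D than in P, where 12% of all genes tested were. H19, an imprinted noncoding RNA, was at 687, 656 and 702 CPM in P, at 460, 561 and 647 CPM in C and at 600, 651 and 817 CPM in D. None of these 30 genes passed in any pair by edgeR, and DESeq2 called Aldoa in D against C, with adjusted p = 0.0422. Of 11 oxidative phosphorylation genes tested, 3 were higher in C than in P in all 3 libraries, beside 13.7% of all genes tested. Lower in C in all 3 were 2 of the 11, beside 10.6%.

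Letter D stood highest for Lhx9 and Igfbp2, which did not pass by edgeR and passed in D against C by other tools. Lhx9, a LIM homeobox gene needed for gonad formation and active in the surface epithelium, was at 303, 284 and 289 CPM in P, at 111, 314 and 236 CPM in C and at 335, 521 and 381 CPM in D. D was the highest letter in each library, and D over C was 1.02 ± 0.23 with adjusted p = 0.46 by edgeR. Igfbp2, a secreted binding protein of insulin-like growth factors that was singled out after its values were seen, was at 428, 517 and 323 CPM in P, at 332, 435 and 322 CPM in C and at 605, 636 and 573 CPM in D. All 3 D pools of Igfbp2 were above all P and C pools, by 0.81 ± 0.15 over C with adjusted p = 0.14 by edgeR. In D against C DESeq2 gave adjusted p = 1.78e-05 for Igfbp2 and 0.0054 for Lhx9, and limma on mean log2 CPM over cells gave 0.0028 and 0.0233. Over the later libraries D over C was 0.64 ± 0.24 for Igfbp2 and 0.53 ± 0.29 for Lhx9, with adjusted p = 0.9989 by edgeR for both. At E15.5 alone Lhx9 was called higher in D than in P, by 1.27 on the log2 scale with adjusted p = 0.0124 by edgeR.

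The mitotic genes were the list with the largest share of members on one side of P among the 29 lists, without a call for any member by edgeR. Of 13 tested members of the G2 and M phase list, 11 were higher in C than in P in all 3 libraries, beside 13.7% of all genes tested, and 12 were higher in D than in P, beside 12.6%. The median log2 fold change was 1.17 for C over P, 1.23 for D over P and 0.253 for D over C. Cdc20, the activator of the anaphase-promoting complex, was at 6.8, 77.4 and 22.2 CPM in P, at 54.5, 164 and 87.4 CPM in C and at 74.9, 172 and 77.6 CPM in D. Its log2 fold change was 1.81 ± 0.45 for C over P and 2.02 ± 0.45 for D over P, with adjusted p = 0.79 and 0.43 by edgeR. DESeq2 called Cdc20 (0.0063 and 0.00096) and Cdk1 (0.0137 and 0.00017) in both comparisons, Cenpa in C against P (0.0266) and Plk1, a mitotic kinase, in D against P (0.0097). Cdk1, the kinase that drives entry into mitosis, was at 49.2, 160 and 119 CPM in P, at 113, 294 and 189 CPM in C and at 122, 329 and 235 CPM in D. Cenpa, the centromeric histone H3 variant, and Cdca3, a trigger of mitotic entry that is no member of the list, had the same order in C against P, with 1.25 ± 0.34 and 1.87 ± 0.45.

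The libraries also differed. The summed CPM of the list was 238, 1491 and 761.4 in P of libraries 4, 13 and 15, 619.4, 2278 and 1851 in C and 985.3, 2704 and 1490 in D. P was lowest in each library, but the P pool of library 13 was above the C and D pools of library 4. The S phase list showed no such order, with medians of -0.02 for C over P and 0.136 for D over P over its 10 tested genes. Within cluster 1 alone the G2 and M medians were -0.151 for C over P and 0.425 for D over P. Cells with at least 100 CPM of Cdc20 were 1 of 80 in cluster 1, 11 of 19 in the stroma-like cluster 9 and 13 of 24 in the surface-epithelium-like cluster 10, and clusters 9 and 10 held 6 and 6 P, 10 and 4 C, and 3 and 14 D cells. The part of these clusters in the difference was not tested. At E13.5 library 3 had 1570 CPM in P and 722.1 CPM in C, the reverse of the E14.5 order. At E15.5 D was the lowest letter of both libraries, at 627.9 and 450.9 CPM, and at E16.5 it was the highest of both, at 1502 and 2612 CPM. The median log2 fold change of D over P was -0.776 at E15.5 and 1.26 at E16.5, and whether the stages differ was not tested for the list.

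**Figure D4:**
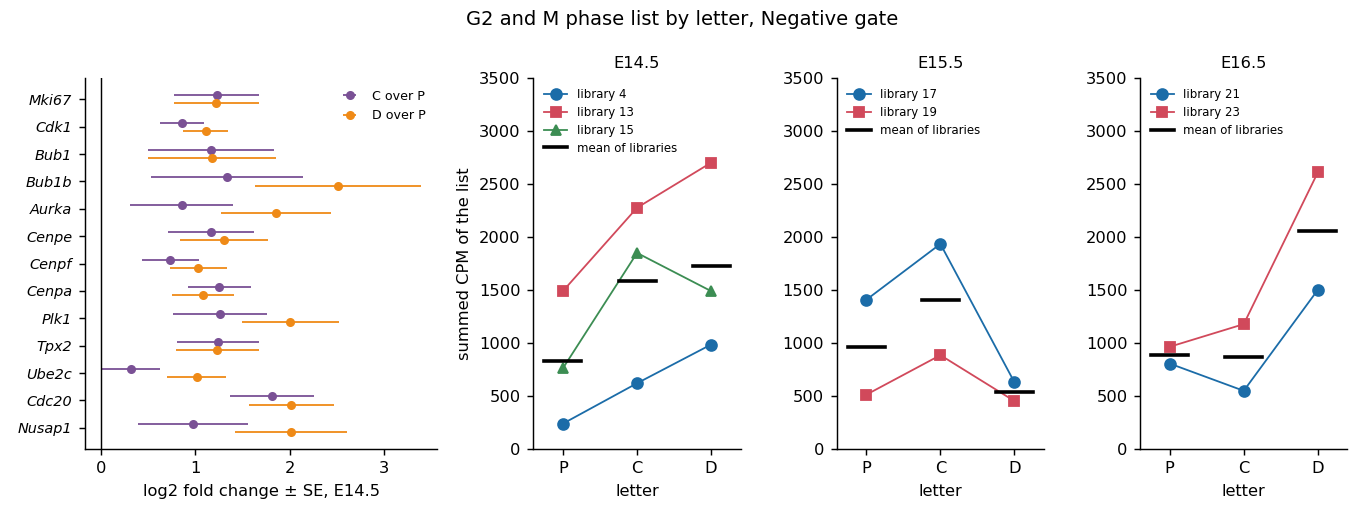
Left, log2 fold change with SE of the 13 tested G2 and M phase genes at E14.5 for C over P and D over P; right, summed CPM of the list in each pool at E14.5, E15.5 and E16.5, with lines joining the pools of a library and black bars for means. At E14.5 P is the lowest letter in each library, at E15.5 D is the lowest and at E16.5 D is the highest.

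The summed marker lists of cell types gave no p under 0.05 between the letters. Across 13 lists, the exact permutation of the letters within libraries gave p between 0.25 and 0.944, with adjusted p of at least 0.883, and the smallest p possible was 0.0278. A single list at that smallest p could not pass 0.05 after adjustment over 13 lists. The adjusted values therefore do not show that the letters hold the same cell types. The stroma markers summed to 935.7 to 1042 CPM in P, 579.2 to 1784 CPM in C and 570.7 to 1447 CPM in D. Tcf21, a stromal transcription factor, was at 8.8, 57.3 and 33.4 CPM in P and at 8.04, 114 and 146 CPM in C, so it was higher in C in libraries 13 and 15. The surface epithelium markers, Upk3b, Bnc1, Lrrn4 and Crb2 among the tested, summed to 67.8 to 137.8 CPM in P, 1.71 to 162.2 CPM in C and 66.5 to 444.9 CPM in D. Library 13 set the high end in D: Upk3b, a uroplakin of mesothelium, was at 308 CPM there and at 82.9 and 55.1 CPM in the other D pools. The endothelial markers summed to 20.8 to 329 CPM in P, 29.6 to 123.7 CPM in C and 85.2 to 181.3 CPM in D.

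Clusters 1, 9 and 10 held cells of all 3 letters. In cluster 1, the supporting-like one, lay 26 of 47 P cells, 25 of 44 C cells and 29 of 46 D cells, or 55.3%, 56.8% and 63% with exact binomial intervals of 40.1 to 69.8%, 41 to 71.7% and 47.5 to 76.8%. The stroma-like cluster 9, in which all 13 measured stroma markers were above the rest of the series, held 6 P, 10 C and 3 D cells. The surface-epithelium-like cluster 10, with 4 of 5 measured markers above the rest, held 6 P, 4 C and 14 D cells, and 9 of those 14 came from library 13. Cluster 10 also had 6 of 11 supporting, 4 of 5 early gonadal and 6 of 13 stroma markers above the rest. Cluster 1 also had 3 of 3 Sertoli and 2 of 3 steroidogenic markers above it. The Negative gate gave 529 of the 1881 cells of the series, so the rest is mostly cells of other gates and the names are approximate. None of the 137 cells lay in a germ, immune or mixed cluster. Intervals cover counting error only, and no test was made on cluster sizes.

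A further pair of small clusters without a cell type name was led by Cpa1 (cluster 11) and by Pax8 (cluster 14). Cluster 11 also had 9 of 11 supporting markers above the rest of the series and cluster 14 had 7 of 11. They held 3 P, 1 C and 0 D cells and 6 P, 4 C and 0 D cells. Since Cpa1 differs between the letters and defines cluster 11, the clusters were also drawn without the 714 genes that had an unadjusted p under 0.05 in any pair. The nearest clusters then held 4 P, 2 C and 0 D cells and 2 P, 3 C and 0 D cells. Of the 65 cells of cluster 11 in the series, 53 lay in its nearest cluster of 87 cells. Of the 51 cells of cluster 14, only 23 lay in its nearest cluster of 24, so most of it was not recovered. For clusters 1 and 9 the nearest held 29, 25 and 31 and 6, 10 and 3 cells of P, C and D. For cluster 10 it held 6, 4 and 12. A count of 0 of 46 D cells has an exact 95% binomial upper limit of 7.71%, which covers counting error only. Without the cells of clusters 11 and 14, a setting not planned beforehand, Cpa1 remained the only gene called in D against P and in D against C. Clusters 11 and 14 held 277 and 108 Cpa1 UMIs, against 1651 in cluster 1, so leaving them out could change the call little. Cluster 14 held 8 of 23 P, 1 of 31 C and 0 of 31 D cells at E15.5 and 3 of 31 P, 4 of 30 C and 3 of 31 D cells at E16.5. Of the 8 P cells at E15.5, 4 came from library 19, whose whole P pool had 3 Pax8 UMIs. A cell of this cluster is thus not always a cell with much Pax8.

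**Figure D5:**
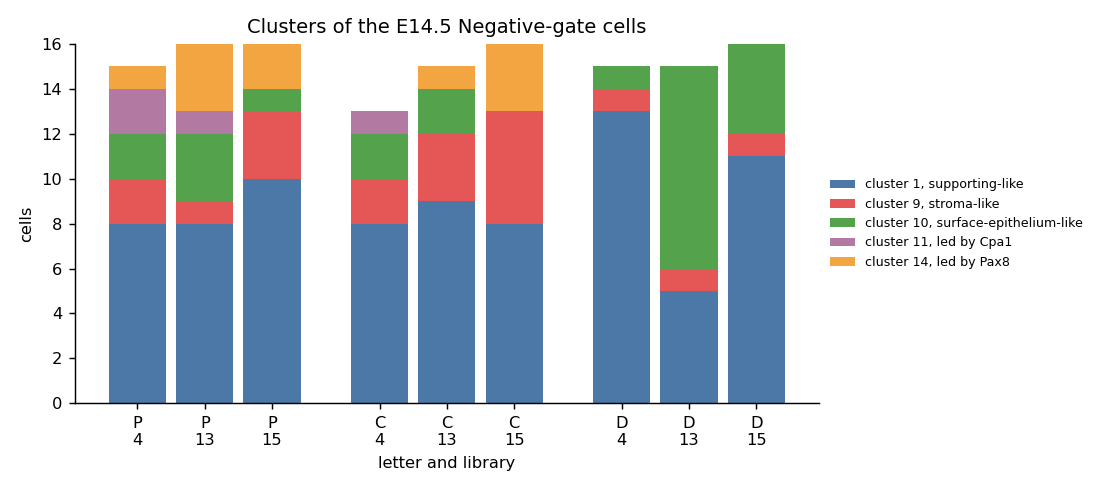
Number of E14.5 Negative-gate cells (vertical axis) of each letter and library in the 5 clusters that hold them. Cluster 1 is the largest in each pool except D of library 13, where 9 of 15 cells lie in cluster 10, and clusters 11 and 14 hold 0 D cells.

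The Hox genes, which pattern the body axis, and the retinoic acid and BMP genes gave no call by edgeR. Of 20 measured Hox genes, 6 were tested. Hoxd9, the highest of them, was at 38, 38.2 and 24.8 CPM in P, at 47.4, 98.7 and 76 CPM in C and at 53.3, 126 and 11.1 CPM in D. Hoxa7 had 54 UMIs in P, 155 in C and 1 in D, with an unadjusted edgeR p of 0.0069 and an adjusted p of 0.81 for D against C, where DESeq2 gave adjusted p = 0.0105. None of 6 tested retinoic acid genes and none of 13 tested BMP and activin genes passed by edgeR, and DESeq2 called Acvr1, an activin and BMP receptor, in D against C with adjusted p = 0.0456. Cyp26b1, the enzyme that breaks down retinoic acid, was seen in library 13 alone, at 3.82, 5.94 and 5.66 CPM for P, C and D. Rdh10, which makes the precursor of retinoic acid, was at 111, 43.5 and 14.7 CPM in P, at 52.3, 45.6 and 61.2 CPM in C and at 40.5, 10.4 and 11.8 CPM in D. The medians of these lists were 0.183 and 0.054 for retinoic acid genes and 0.159 and -0.099 for BMP and activin genes, for C over P and D over P.

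Cpa1 was not called at the later stages, in the fit over both or in either alone. At E15.5 alone 27 of 6757 genes (0.4%) passed in D against P by edgeR, 17 of them higher in D, 9 (0.133%) passed in C against P and 1 (0.0148%) in D against C. At E16.5 alone 4 of 6576 (0.0608%) passed in D against C and none in the other pairs, where 327 and 289 genes had an unadjusted p under 0.05 for C against P and D against P. Each of these stages had 2 libraries. The E15.5 calls against P, those of Bmp2, Atf3 and Lhx9 included, used a P pool of 8 cells in library 19. With both stages together no gene passed in any pair by edgeR, where 316, 342 and 248 genes had an unadjusted p under 0.05 for C against P, D against P and D against C. No gene of 7330 passed the edgeR test that the letter difference at E14.5 differs from that of the later stages, in any of the 3 pairs, where 360, 263 and 266 had an unadjusted p under 0.05.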

How the data were processed

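The deposited table holds UMI counts per gene and cell, which the authors made from STRT-seq reads; the submitters' processing notes name CASAVA 1.8, UMI-tools, STAR, featureCounts, Subread and build mm10. The labels give no strand setting. The table held 16344 complete genes, a median of 51.5% of a cell's UMIs, and 1 incomplete line was left out. CPM divides by the deposited UMI total per cell. Counts were summed per library and letter, which left 13 to 16 cells a pool, and tested with edgeR 4.0.16 (TMM, filterByExpr, library and letter as terms, Benjamini-Hochberg at 0.05 over 6552 genes). Clusters were drawn with scanpy 1.11.5 and Leiden (2000 variable genes, 30 components, 15 neighbours, resolution 1), and a marker counted as above the rest at over 2 times the rest of the series plus 5 CPM. No doublet caller was run, since cells were picked singly. The test was checked on simulated counts with known changes and did not recover all of them. A gene that did not pass may therefore still differ.

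The library block is part of the design, as all letters came from each library. Named genes were all that passed, the 5 with the smallest p in each direction where none passed (C against P), the 3 highest members of each of 29 lists, and a fixed set with the Hox genes; not each is printed. Members and lists were chosen with earlier results of these data known. Alternatives used DESeq2 1.42.0 and limma 3.58.1, among other settings. Positions and gene overlaps are from GENCODE M21.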

Additional observations from a re-analysis of the deposited data

How the results depend on the processing

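With DESeq2 the calls were 44 for C against P, 40 for D against P, 61 for D against C and 66 for any difference among letters; edgeR gave an unadjusted p under 0.05 to 44, 39 and 61 of those in the 3 pairs. Without a filter on low counts the calls were 7, 10, 5 and 13. With limma on mean log2 CPM D against P gave 0 and D against C gave 2, and with cells thinned to 20000 UMIs D against C and any difference gave 2 each. Leaving out a library gave 0 to 2 calls for C against P, 1 for D against P, 0 to 2 for D against C (0 without library 15) and 0 to 3 for any difference (0 without library 13, 3 without library 15). Without the library block the calls were 0, 1, 1 and 1, as with it, and no further pairing was tested. Cpa1 passed in 14 of 15 alternatives for D against P and in 13 of 15 for D against C. Pool minimums of 3 and 10 cells, and leaving out germ, mixed or immune clusters, removed no cells. Those alternatives repeat the main fit, so their passing was fixed beforehand. At a clustering resolution of 0.5 the nearest clusters held 70.2% of P for cluster 1, 37.0% of D for cluster 9, 31.8% of C for cluster 10, and 70.2% of P, 65.9% of C and 63.0% of D for cluster 14, since small clusters merge there. The cells were also clustered without genes at p under 0.05 between letters, a choice made after seeing the data. The cluster nearest to cluster 14 then held 4.26% of P, and only 23 of the 51 cells of cluster 14 lay in it. The cause of the other changes was not tested. With 2 libraries the smallest exact permutation p is 0.167, so those tests cannot pass.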
